A study of Mus musculus with 51 samples.

Results

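The 6 Hox genes of paralog groups 10 and 11 that the Hox expression table holds, Hoxa10, Hoxc10, Hoxd10, Hoxa11, Hoxc11 and Hoxd11, were followed while mouse embryonic stem cells (mESCs) differentiated towards neuromesodermal progenitors (NMPs), the cells that build the spinal cord and trunk mesoderm. They were taken by name from the 39 Hox genes of the table, beside 27 genes of groups 1 to 9 and 6 genes of groups 12 and 13. RNA-seq libraries were made from male C57BL/6/Cast F1 mESCs of 2 genotypes, Smchd1[fl/+] (wt, the control) and Smchd1[del/+] (maternal null). In both, the allele from the father was intact, and in the maternal null the allele from the mother had been deleted in the oocyte by Zp3-Cre, which is active in growing oocytes. There were 45 libraries, 23 wt and 22 maternal null, taken at 6 times from day 0 to day 4, with 4 libraries a group except 3 for wt at day 1 and for maternal null at days 0 and 2.5. Cells were moved at day 0 from serum medium with LIF, which holds them pluripotent, to serum-free N2B27 medium with FGF. CHIR99021, which activates Wnt signalling, was added at day 2, and GDF11 at day 3. Of the 4 replicates of a genotype, the labels place replicates 1 to 3 in line 1 and replicate 4 in line 2, while the study's legends describe pairs of technical replicates from each of 2 lines. By either account libraries of a group share a line, and p-values measure the spread between these libraries. A further 6 mESC lines, 3 of each genotype, were sequenced in 2i + LIF, a medium whose kinase inhibitors keep mESCs naive.

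Hox genes encode homeodomain transcription factors that give cells their position along the head-to-tail axis, and within each cluster they are switched on in the order in which they lie, from group 1 to group 13. Genes of group 10 are known for suppressing ribs in the lumbar region, and those of group 11 for forming the sacrum, with further roles in limb and kidney. GDF11 is a ligand of the TGF-beta family that signals through activin receptors and SMAD2 and SMAD3, and it is known for driving the change from trunk to tail in axial progenitors, with the activation of posterior Hox genes.

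Each gene has its place in 1 of 3 clusters (GRCm38). In the HoxA cluster, Hoxa10 spans chr6:52231197-52240854 and Hoxa11 chr6:52242106-52245810, both on the minus strand. In the HoxC cluster, Hoxc11 spans chr15:102954427-102957708 and Hoxc10 chr15:102966796-102971893, both on the plus strand. In the HoxD cluster, Hoxd11 spans chr2:74679557-74687016 and Hoxd10 chr2:74691924-74695105, also on the plus strand. Their merged exons run from 1816 bp for Hoxd10 to 4212 bp for Hoxd11. The spans of 4 of the 6 overlap another counted gene. Hoxc10 shares 4451 bp with Hoxc5, Hoxd10 and Hoxd11 share 2271 bp and 3571 bp with the same transcript, Gm28309, and Hoxa11 shares 1418 bp with Hoxa11os on the opposite strand. Stranded and non-stranded kits are both named for these libraries, so reads of Hoxa11 and of its antisense partner cannot be told apart.

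RefSeq promoter windows (GRCm38.p6), from 250 bases before to 50 after a start site, were at hand for 4 of the 6 genes, and are shown because these 4 genes moved together at the last step of the series. Hoxc10 and Hoxc11 had no entry. Where a gene had 2 entries, the window whose start lay nearest to the gene's end in the table is given. Capitals mark TTTAT on either strand (TTTAT or ATAAA), letters found in the sites of CDX factors.
Hoxa10 (chr6:52240805-52241104, minus strand): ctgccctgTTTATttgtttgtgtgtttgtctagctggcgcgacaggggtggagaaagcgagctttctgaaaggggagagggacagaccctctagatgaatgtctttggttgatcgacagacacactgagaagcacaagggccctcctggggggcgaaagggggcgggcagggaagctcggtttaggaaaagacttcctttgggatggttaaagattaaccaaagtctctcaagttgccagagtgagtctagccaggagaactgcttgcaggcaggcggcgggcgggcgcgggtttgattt
Hoxd10 (chr2:74691641-74691940, plus strand): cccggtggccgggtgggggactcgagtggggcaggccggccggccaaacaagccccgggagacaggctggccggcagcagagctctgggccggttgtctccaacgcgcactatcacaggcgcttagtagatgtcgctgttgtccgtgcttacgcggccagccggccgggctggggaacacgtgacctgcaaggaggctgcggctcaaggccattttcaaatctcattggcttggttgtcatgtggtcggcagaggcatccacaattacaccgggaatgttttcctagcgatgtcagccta
Hoxa11 (chr6:52245761-52246060, minus strand): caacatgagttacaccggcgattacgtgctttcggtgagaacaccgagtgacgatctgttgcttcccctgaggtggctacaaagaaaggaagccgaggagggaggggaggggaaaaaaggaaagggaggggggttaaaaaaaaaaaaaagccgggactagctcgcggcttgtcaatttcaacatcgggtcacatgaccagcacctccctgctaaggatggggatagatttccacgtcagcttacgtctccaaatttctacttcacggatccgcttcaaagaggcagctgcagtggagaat
Hoxd11 (chr2:74679308-74679607, plus strand): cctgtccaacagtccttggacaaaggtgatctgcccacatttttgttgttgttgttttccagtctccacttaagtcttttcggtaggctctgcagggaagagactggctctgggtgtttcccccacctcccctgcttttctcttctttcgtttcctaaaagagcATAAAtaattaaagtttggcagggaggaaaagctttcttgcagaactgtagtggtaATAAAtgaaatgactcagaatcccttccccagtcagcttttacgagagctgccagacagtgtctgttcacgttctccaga

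TTTAT occurred 1 time in the Hoxa10 window and 2 times in the Hoxd11 window, and not in those of Hoxd10 and Hoxa11. It occurred at least 1 time in 40.0% of the 32851 windows of the table. CAGAC, a short sequence bound by SMAD factors and sought on both strands (CAGAC or GTCTG), occurred 2 times in each of the Hoxa10 and Hoxd11 windows and in neither of the others, against 49.6% of all windows with at least 1 and 16.2% with at least 2. A match of one motif cannot overlap a match of the other, though each can overlap itself by its end letters, and a match is only a description of the window. The second Hoxd11 entry, at chr2:74682073-74682372, held neither motif and 25 CpGs, against 4 in the window printed above and a median of 7 over all windows. The second Hoxa10 entry, at chr6:52234890-52235189, held TTTAT 1 time, no CAGAC and 21 CpGs, against 12 CpGs in its printed window.

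Log2 RPKM, the log of reads per kilobase of transcript and M (10 to the power 6) mapped reads, could be turned back into reads for every Hox gene. With the merged exon length of each gene, all 1678 values under 500 reads came out within 0.05 of a whole number, or at the value of 0.9 reads that stands for a gene without any. The depth this implied ranged from 0.346 M to 126.8 M reads a library over the series and from 2.11 M to 73.9 M at days 3 and 4. For the 6 genes, 149 of 270 values stood for no reads. Such a value falls with depth alone: before day 4, the value of Hoxd11 without reads lay between -9.21 and -0.70 log2 RPKM, and all 19 libraries that did have Hoxd11 reads, from -7.53 to -2.29, lay below the top of that range. Reads and RPKM are therefore given side by side, with an RPKM of 0 for no reads, while tests used the log2 RPKM as deposited.

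The labels were checked before use. In 7 of the 45 libraries the recovered Hox reads equalled those of the count column of the same name in all 39 genes, in 35 they equalled a column of another name and in 3 none, among these wt replicate 2 at day 4. Which of the namings is right is not known here, so the count columns of the time course were used for no comparison, and the log2 RPKM columns as named. In the columns with equal reads, used for this check alone, Smchd1, which the log2 RPKM tables do not hold, was at 137 to 189 CPM, counts scaled to the library total, for the 4 wt libraries of day 3 and 69.5 to 136 for the 4 maternal null. At day 4 it was at 121 to 140 in 3 wt libraries and 48.2 to 118 in 4 maternal null. At days 3 and 4 the ranges of the genotypes nearly touched, so that Smchd1 is a weak check there. The ranges overlapped at day 2.5 (130 to 196 in 4 wt, 118 to 152 in 2 maternal null) and at day 0 (99.6 to 176 in 4, 94.4 to 141 in 2), so that Smchd1 does not check the labels of these days. At day 1 it ran from 159 to 250 in wt and from 0 to 136 in maternal null, and at day 2 from 180 to 280 and from 104 to 131. The value of 0 came from the column matched to maternal null replicate 4, of 9.92 M reads, although the allele from the father was intact. In wt at days 0 and 3, markers of the stages lay as the labels have them. The mean of Nanog, a pluripotency factor, in wt was 6.05 ± 0.31 log2 RPKM at day 0 and 3.77 ± 0.67 at day 3, while Tbra, the mesoderm and NMP factor T, stood at 0.12 ± 0.66 and 7.17 ± 0.54 and Cdx2, a regulator of trunk Hox genes, at -0.30 ± 0.64 and 5.98 ± 0.86 on these days (SD, n = 4). In maternal null, Tbra (-0.91 to -0.16 at day 0, 6.22 to 7.48 at day 3) and Cdx2 (-2.01 to -0.54, 5.28 to 6.06) were also apart. Nanog there overlapped, from 4.22 to 6.28 at day 0 and 3.11 to 4.72 at day 3. Pou5f1, another pluripotency factor, had its lowest maternal null library of day 0 at 4.77, below its day 3 range of 7.01 to 7.71. The labels of day 4 were not checked with these markers.

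Before day 4 the 6 genes were at or near the limit of detection. At day 2, with a summed depth of 58.3 M reads in wt and 175.7 M in maternal null, 4 of 24 and 2 of 24 values rested on any reads. The largest of these was 3 reads, for Hoxa10. At day 2.5, in which Wnt signalling had been active since day 2, Hoxa10 had reads in 3 of 4 wt libraries, at most 6, and in all 3 maternal null libraries, with 10, 18 and 21. Per M reads of the library this was 0.201, 0.159, 0 and 0.347 in wt and 0.314, 0.416 and 0.745 in maternal null, so the ranges overlapped. The wt library without Hoxa10 reads had a depth of 1.98 M reads. Hoxc11 had none in any library at days 1, 2 and 2.5, and for the 103.3 M reads of maternal null at day 2.5 a count of 0 allows up to 0.0290 RPM (reads per M reads of the library, for 3 counts). These limits and the intervals below cover counting error only.

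Day 0 was not free of the genes either. Hoxd11 had 17, 2, 8 and 3 reads in the 4 wt libraries of day 0 and 8, 0 and 7 in the 3 maternal null. Summed over libraries this was 0.411 RPM in wt and 0.350 in maternal null, against 0.0171 in wt and 0 in maternal null at day 2. At day 0 all 4 wt libraries had Hoxd11 reads, and at day 2 only wt replicate 1 had, with 1 read. Hoxd10 and Hoxc10 showed up to 4 reads a library at day 0, and in wt none at days 1 and 2. These are a few reads in each library, given as a description without a test.

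**Figure D1:**
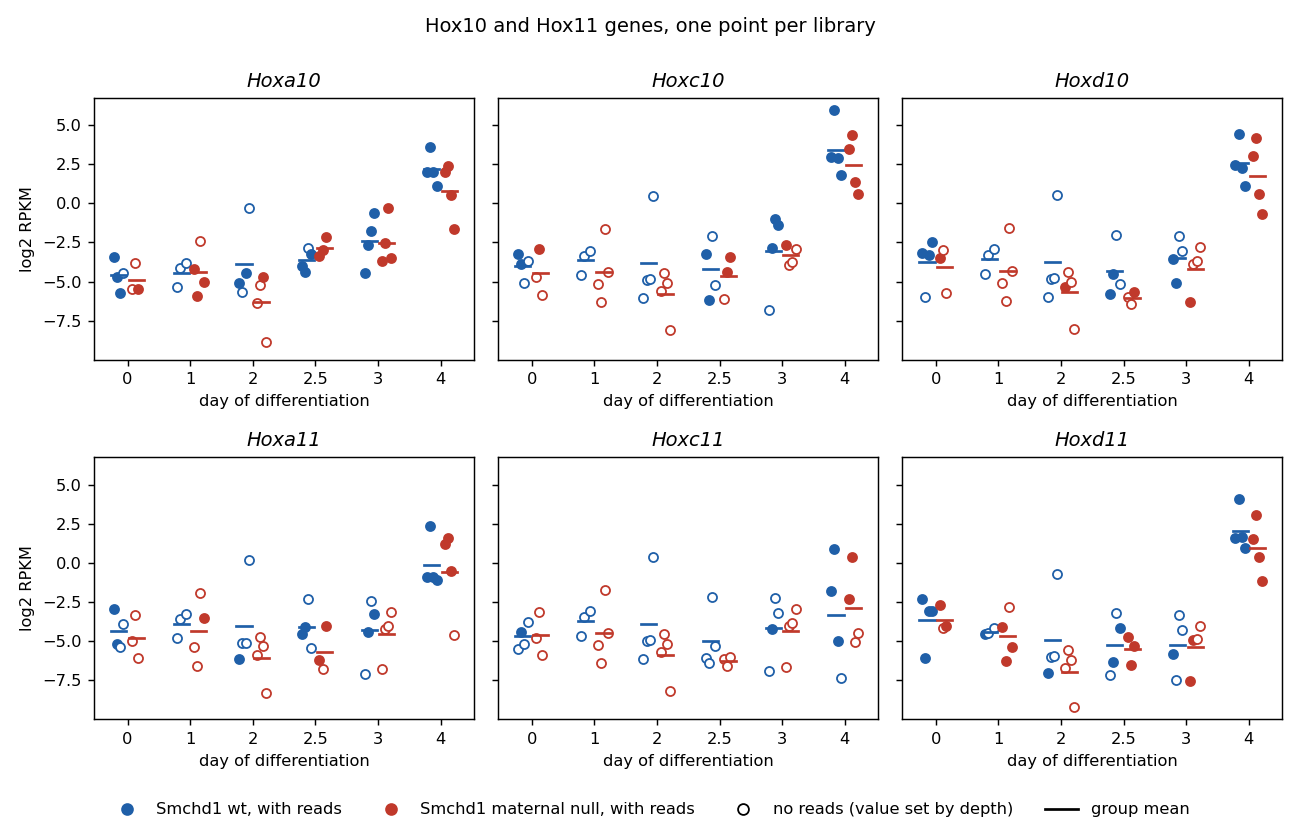
Log2 RPKM of the 6 genes (vertical axis) by day of differentiation (horizontal axis), 1 point per library, wt in blue and maternal null in red, with short lines at the group means. Open points had no reads, and their height follows the depth of the library alone. Filled points at day 4 stand above those of earlier days for Hoxc10, Hoxd10 and Hoxd11, while Hoxc11 has reads in 3 of 4 wt and 2 of 4 maternal null libraries there.

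The step from day 3 to day 4, the 24 h that follow GDF11, was asked of each gene in each genotype. No culture without GDF11 was among the libraries, so GDF11 and a further day of culture cannot be told apart. In bulk RNA, more cells that express a gene and more RNA per cell cannot be told apart either. Hoxc10, Hoxd10 and Hoxd11 had at most 13 reads in a library at day 3 and 11 to 600 at day 4, Hoxa10 rose from a low but detected level, Hoxa11 rose less evenly, and Hoxc11 did not pass the test. Of the 6 genes, 5 rose in wt and 5 in maternal null (limma, Benjamini-Hochberg adjusted p under 0.05), against 35.9% and 30.8% of the 39 Hox genes. At an unadjusted p under 0.05 these were also 5 and 5, against 38.5% and 33.3%.

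Hoxd11, which with its group 11 paralogs patterns the sacrum and the forearm, had the largest difference of the 6 in both genotypes on the deposited scale. At day 3 it had 4, 0, 0 and 0 reads in wt replicates 1 to 4 and 1, 1, 0 and 0 in maternal null. At day 4 it had 208, 188, 202 and 600 reads in wt, or 2.94, 16.7, 3.12 and 1.93 RPKM. In maternal null it had 173, 331, 83 and 18 reads, or 2.86, 8.18, 1.32 and 0.441 RPKM. Every library of day 4 stood above every library of day 3 in both genotypes, and the highest was wt replicate 2. The difference was 7.26 ± 1.05 log2 units in wt (SE, n = 4 and 4, limma adjusted p = 1.13e-05) and 6.28 ± 1.05 in maternal null (limma adjusted p = 9.46e-05). Since most values of day 3 stood for no reads, the size of these differences rests on the value given to 0 reads. Reads summed over libraries, in RPM, give a ratio of 266 in wt (95% counting interval 104 to 979, from 4 reads at day 3) and of 379 in maternal null (104 to 3133, from 2 reads).

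Hoxd10, its neighbour in the HoxD cluster and a gene of lumbar motor neurons and hindlimb, followed it closely. In wt it had 8, 2, 0 and 0 reads at day 3 and 163, 104, 134 and 285 at day 4, the latter 5.35, 21.4, 4.80 and 2.13 RPKM. In maternal null it had 1, 0, 0 and 0 reads at day 3 and 210, 316, 40 and 11 at day 4, the latter 8.05, 18.1, 1.48 and 0.625 RPKM. The days did not overlap in either genotype. Hoxd10 rose by 6.00 ± 1.05 log2 units in wt (limma adjusted p = 0.000114) and 5.93 ± 1.05 in maternal null (limma adjusted p = 0.000139). In summed RPM the ratio was 61.0 in wt (33.0 to 128), and in maternal null, from 1 read at day 3, 722 (129 to 28571).

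Hoxc10, which with Hoxa10 and Hoxd10 suppresses ribs on lumbar vertebrae, reached the highest level per length. At day 3 it had 0, 10, 2 and 3 reads in wt and 13, 0, 0 and 0 in maternal null, so it was seen in 3 of 4 and in 1 of 4 libraries. At day 4 its wt values were 7.93, 63.2, 7.52 and 3.43 RPKM and its maternal null values 11.2, 20.3, 2.60 and 1.51 RPKM, from 28 to 484 reads a library. All 8 libraries of day 4 stood above all of day 3. Hoxc10 rose by 6.43 ± 1.14 log2 units in wt (limma adjusted p = 0.000114) and 5.76 ± 1.14 in maternal null (limma adjusted p = 0.000462). The ratio of summed RPM was 76.0 in wt (45.9 to 136) and 75.1 in maternal null (43.7 to 142), where all 13 reads of day 3 came from replicate 1. In wt, replicate 4 gave 73.9 M of the 108.7 M reads of day 4 and had the lowest level there. The span of Hoxc10 overlaps that of Hoxc5, and how reads in the shared part were assigned is not given in the sources used here.

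Hoxa10, known from the lumbar spine and from the uterus, was the gene of the 6 with reads in all 16 libraries of days 3 and 4. At day 3 it had 8, 19, 2 and 9 reads in wt, or 0.0463, 0.155, 0.290 and 0.664 RPKM, and 11, 4, 17 and 1 in maternal null, or 0.0768, 0.169, 0.826 and 0.0879 RPKM. At day 4 it stood at 4.03, 12.1, 3.97 and 2.18 RPKM in wt and 3.91, 5.28, 1.44 and 0.315 RPKM in maternal null. In wt the days did not overlap. In maternal null they did, since replicate 4 of day 4 lay below replicate 3 of day 3. Hoxa10 rose by 4.56 ± 1.01 log2 units in wt (limma adjusted p = 0.000830) and 3.32 ± 1.01 in maternal null (limma adjusted p = 0.0157). The maternal null call was lost without replicate 1 of day 3 (adjusted p = 0.0671) and without replicate 1 (0.0617) or replicate 2 (0.0635) of day 4, with differences of 2.92, 2.93 and 2.79.

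Hoxa11, which acts in the sacrum, forearm and kidney, rose to a lower level. At day 3 it had 0, 4, 0 and 1 reads in wt and none in maternal null, where a count of 0 in 60.8 M reads allows up to 0.0494 RPM. At day 4 its wt values were 0.547, 5.06, 0.540 and 0.480 RPKM, so that replicate 2 stood far above 3 libraries that were close together. Its maternal null values were 2.28, 3.05, 0.705 and 0 RPKM, from 75, 67, 24 and 0 reads. The days did not overlap in wt and did in maternal null, where replicate 4 of day 4 had no reads. The difference was 4.17 ± 1.25 log2 units in wt (limma adjusted p = 0.0104) and 3.95 ± 1.25 in maternal null (limma adjusted p = 0.0157). Both calls depended on single libraries: that of wt was lost without replicate 1 of day 3 (adjusted p = 0.0748) and that of maternal null without replicate 1 of day 3 (0.0790), replicate 1 of day 4 (0.0717) or replicate 2 of day 4 (0.0729). Summed over libraries the maternal null level at day 4 was at least 69.3-fold higher, taking 3 counts over the group as the limit at day 3, and the 95% counting interval of the ratio starts at 55.7.

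Hoxc11 stayed the lowest. It had 0, 4, 0 and 0 reads at day 3 in wt and none in maternal null, and at day 4 it had 10, 10, 1 and 0 reads in wt and 6, 25, 0 and 0 in maternal null. Levels at day 4 were thus 0.295, 1.85, 0.0322 and 0 RPKM in wt and 0.207, 1.29, 0 and 0 in maternal null. The wt library without reads was the deepest of day 4, at 73.9 M reads, and reads were most frequent in replicate 2 of each genotype. The difference between days was 0.85 ± 1.45 log2 units in wt (95% interval -2.17 to 3.87, limma adjusted p = 0.716) and 1.50 ± 1.45 in maternal null (-1.52 to 4.52, limma adjusted p = 0.640). With edgeR on the recovered reads the maternal null difference passed (adjusted p = 0.0312), with no reads at day 3. The limma differences rest on values for no reads, which follow depth, as the -7.37 log2 RPKM of that deepest wt library. Summed over libraries, in RPM, the ratio was 4.67 in wt (95% counting interval 1.57 to 18.7, from 4 reads at day 3). In maternal null the interval starts at 9.90, from 0 reads at day 3. The lack of a limma call for Hoxc11 thus does not show a lack of a rise.

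A test without a model of the spread also called 5 of the 6 genes, all but Hoxc11. Days were exchanged between libraries of each genotype in all 4900 arrangements (exact permutation test, two-sided), and Hoxc10, Hoxd10 and Hoxd11 reached p = 0.000408, the smallest that design allows (adjusted p = 0.00199 over 39 genes). Hoxa10 had an exact permutation p of 0.000816, Hoxa11 of 0.00204 and Hoxc11 of 0.353 (adjusted p = 0.00318, 0.00612 and 0.491). The same test called 38.5% of the 39 Hox genes higher. Within line 1 as the labels give it, that is without replicate 4, the limma fit also called 5 of the 6 genes in each genotype, all but Hoxc11, with differences from 4.83 to 7.94 log2 units in wt and 3.81 to 7.43 in maternal null. Within 1 genotype an exact test of 4 against 4 libraries cannot go below 0.0286, which was the value of all genes of the 6 but Hoxc11 in wt (0.714) and of Hoxc10, Hoxd10 and Hoxd11 in maternal null. All libraries of day 4 stood above all of day 3 for 5 of the 6 genes in wt, against 30.8% of 39, and for 3 of 6 in maternal null, against 25.6%.

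**Figure D2:**
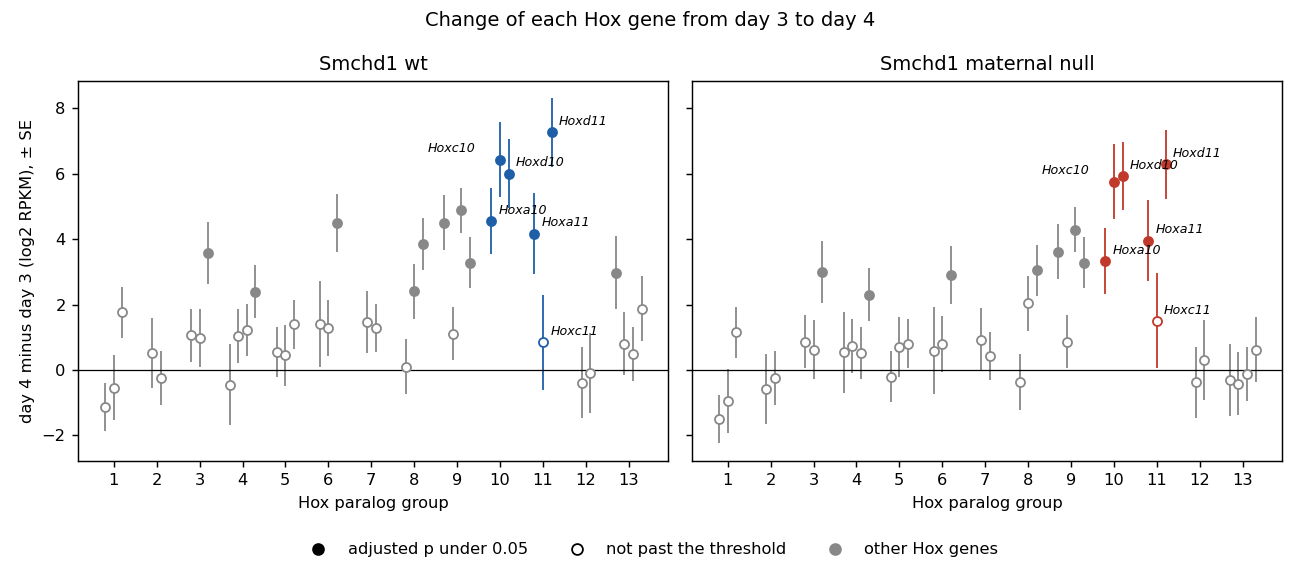
Difference between day 4 and day 3 in log2 RPKM with its SE (vertical axis) for each of the 39 Hox genes, ordered by paralog group (horizontal axis), wt on the left and maternal null on the right. Filled points passed limma at an adjusted p of 0.05, and grey points are the other Hox genes. The 6 genes have medians of 5.28 and 4.86, against 1.29 and 0.79 over all 39.

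The median difference of the 6 genes was 5.28 log2 units in wt and 4.86 in maternal null. The 27 genes of groups 1 to 9 had medians of 1.28 and 0.79, with 8 and 7 of them called higher and 0 lower. The 6 genes of groups 12 and 13 had medians of 0.64 and -0.21, with 1 called in wt and 0 in maternal null. The gene called in wt, named here after its value was seen, was Hoxa13, the most posterior gene of its cluster, with 2.98 ± 1.10 log2 units (limma adjusted p = 0.0365), while its maternal null value was -0.30 ± 1.10. Group 10 had medians of 6.00 in wt and 5.76 in maternal null, above those of groups 9 and 11. The rise was not confined to groups 10 and 11. Group 9 had medians of 3.89 in wt and 3.45 in maternal null, near those of group 11 (4.17 and 3.95), which holds Hoxc11. In wt Hoxc6 and Hoxd8, named after their values were seen, rose by 4.48 ± 0.89 and 3.85 ± 0.78. In group 9 Hoxb9 did not pass (1.11 ± 0.81 and 0.87 ± 0.81), while 3 genes rose beside the 6: Hoxa9 by 4.50 ± 0.84 and 3.61 ± 0.84 log2 units in wt and maternal null, Hoxc9 by 4.88 ± 0.70 and 4.29 ± 0.70, and Hoxd9 by 3.28 ± 0.77 in each.

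At day 0 in wt, Hoxa9 and Hoxc9 had reads in 0 of 4 libraries, Hoxd9 and Hoxa10 in 3 of 4 and Hoxd11 in 4 of 4. Reads at day 0 were not particular to the 6 genes. In wt 15 of 24 of their values had reads, against 57 of 108 for groups 1 to 9 and 14 of 24 for groups 12 and 13. At day 2.5 in wt, Hoxa9 and Hoxa10 both had reads in 3 of 4, with medians of 0.0590 and 0.0551 RPKM. At day 3 Hoxa9, Hoxc9 and Hoxd9 had reads in all 8 libraries, with wt medians of 1.05, 0.325 and 2.08 RPKM, while the 6 genes had reads in 13 of 24 wt and 8 of 24 maternal null values. At day 4 these shares were 23 of 24 and 21 of 24. Between day 2.5 and day 3, 0 of the 6 genes passed limma in either genotype, and 0 of the 6 had an unadjusted p under 0.05, with edgeR on recovered reads also at 0. Without replicate 1 of wt at day 3, the deepest library of that day, 2 of the 6 passed in wt, Hoxa10 with 1.93 ± 0.79 and Hoxc10 with 2.42 ± 0.86 log2 units (limma adjusted p = 0.0384 and 0.0191). In wt 46.2% of the 39 Hox genes were called over that step, 0 of them lower, and 51.3% had an unadjusted p under 0.05. Without the libraries under 5 M reads 7 Hox genes passed there in place of 18. In maternal null 0% were, with 25.6% at an unadjusted p under 0.05, and 1 gene, outside the 6, with the replicate number as a block.

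At day 4 the medians gave the same order of levels per length in both genotypes. By the median RPKM, Hoxc10 came first (7.73 in wt, 6.88 in maternal null), then Hoxd10 (5.07 and 4.76), Hoxa10 (4.00 and 2.68), Hoxd11 (3.03 and 2.09), Hoxa11 (0.544 and 1.49) and Hoxc11 (0.163 and 0.103). Hoxc10 was above Hoxd10 in 4 of 4 libraries of each genotype. Hoxd10 was above Hoxa10 in 3 of 4 wt and 4 of 4 maternal null libraries, and Hoxa10 above Hoxd11 in 3 of 4 and 2 of 4. The order of Hoxd10 and Hoxa10 in wt, and of Hoxa10 and Hoxd11 in both genotypes, was thus not the same in every library. Levels of different genes were not tested against each other. Hoxd11 was above Hoxa11 in 4 of 4 of each. Hoxa11 was above Hoxc11 in 4 of 4 wt and 3 of 4 maternal null libraries. How reads that Hoxd10 and Hoxd11 could share with Gm28309 were counted is not given in the sources used here.

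The libraries of day 4 differed strongly among themselves, and 5 of the 6 genes, all but Hoxc11, moved closely together in them. All 6 were highest in wt replicate 2, where they summed to 284 RPM, and lowest, or without reads, in maternal null replicate 4, with 6.91. The other libraries lay between 19.5 and 133 RPM. In each genotype the sum was highest in replicate 2 (284 RPM in wt, 133 in maternal null). It was lowest in replicate 4 (26.8 and 6.91), which the labels place in line 2. A part of the line or of the replicate number in this was not tested. The summed reads of groups 1 to 9 were highest in wt replicate 2 too, at 1484 RPM. They ran from 213, in maternal null replicate 3, to 835 in the other libraries of day 4. Wt replicate 2 was also the shallowest library of day 4, at 2.68 M reads, and its Hox reads equalled no count column. Without it, Hoxa10, Hoxc10, Hoxd10, Hoxa11 and Hoxd11 still passed in wt, with differences of 4.08, 5.57, 5.38, 3.35 and 6.59 log2 units, while Hoxc11 stood at -0.55. Over the 8 libraries of day 4, Pearson's r between pairs of the 5 genes other than Hoxc11 ranged from 0.87 to 0.97, a description over libraries of the same day whose depths run from 2.68 M to 73.9 M reads. Pairs with Hoxc11 had r from 0.62 to 0.83, and from 0.45 to 0.74 without wt replicate 2.

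The share of the 6 genes in all Hox reads of a library does not depend on the depth estimate. At day 3 it was 0.316%, 0.138%, 0.429% and 1.12% in wt replicates 1 to 4 and 0.370%, 0.177%, 1.07% and 0.102% in maternal null. At day 4 it was 5.84%, 15.9%, 6.68% and 8.52% in wt and 9.40%, 15.4%, 8.30% and 2.28% in maternal null. The lowest library of day 4 was thus above the highest of day 3. Relative to the summed reads of Hox groups 1 to 9, the difference of Hoxd11 was 7.32 log2 units in wt and 7.11 in maternal null (edgeR on recovered reads, adjusted p = 2.55e-06 and 3.71e-06), and 5 of the 6 genes, all but Hoxc11, passed in each genotype. On this scale edgeR split the 39 genes into 13 higher and 4 lower in each genotype. With limma on the deposited scale 14 in wt and 12 in maternal null were higher and 0 lower, so that both the test and the scale differ between these counts.

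**Figure D3:**
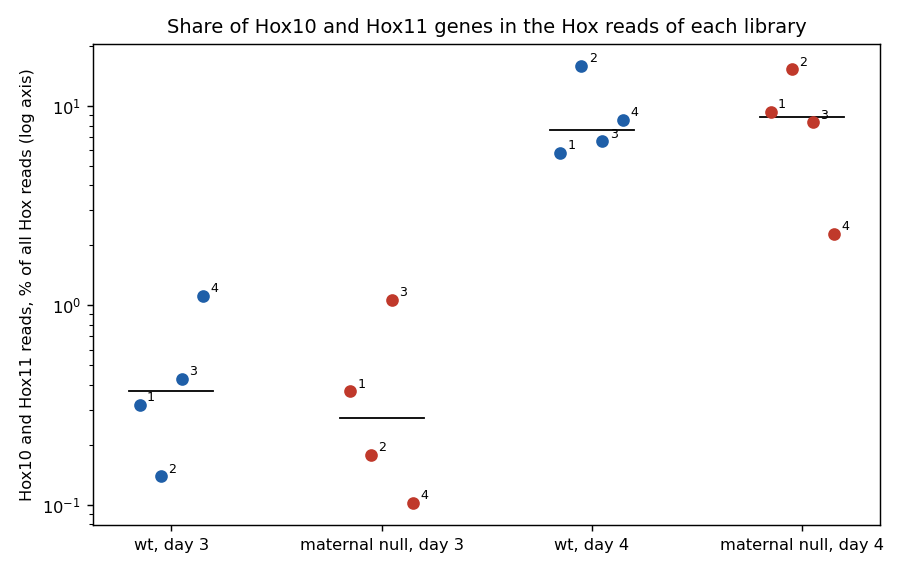
Reads of the 6 genes as a percentage of all Hox reads of a library (vertical log axis) for the 4 groups of days 3 and 4 (horizontal axis), 1 point per library with its replicate number and a line at the group median. Day 3 libraries lie between 0.102% and 1.12%, and day 4 libraries between 2.28% and 15.9%.

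The genotypes were compared at days 2.5, 3 and 4 to ask whether a lack of maternal SMCHD1, a chromatin protein supplied by the oocyte, shifts these genes. At day 3 and at day 4, 0 of the 6 genes passed limma, 0 had an unadjusted p under 0.05, and edgeR on the recovered reads also called 0. The same held for 0% of the 39 Hox genes, adjusted or not. At day 4 the maternal null mean was below that of wt for 5 of the 6 genes, by 1.37 log2 units for Hoxa10 (95% interval -3.46 to 0.72), 1.11 for Hoxd11 (-3.28 to 1.06), 0.97 for Hoxc10 (-3.33 to 1.40), 0.78 for Hoxd10 (-2.95 to 1.39) and 0.46 for Hoxa11 (-3.05 to 2.12). Hoxc11 differed by 0.45 in the other direction (-2.57 to 3.47). The direction was turned for Hoxd10 and Hoxa11 by scaling to groups 1 to 9 (0.45 and 0.86) and for Hoxa11 without wt replicate 2 (0.36). Without that library Hoxc10 and Hoxd10 were at -0.11 and -0.15. Of all 39 Hox genes 5 were higher in maternal null by their mean, and the median difference was -0.75. Differences within these intervals were not detectable with 4 libraries a group.

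The change from day 3 to day 4 itself was also compared between the genotypes. The maternal null change minus the wt change was -1.24 ± 1.43 log2 units for Hoxa10, -0.98 ± 1.48 for Hoxd11, -0.67 ± 1.61 for Hoxc10, -0.22 ± 1.76 for Hoxa11, -0.07 ± 1.48 for Hoxd10 and 0.65 ± 2.06 for Hoxc11 (SE, limma, adjusted p = 0.998 for each). None of the 6 had an unadjusted p under 0.05, and among the 39 Hox genes 2.56% did, a share made up of Hoxa13. At day 2.5 the 6 genes differed by -1.69 for Hoxd10 to 0.79 for Hoxa10 (limma adjusted p = 0.729 for both), with 0 called by limma or edgeR and 0 at an unadjusted p under 0.05. Most of these values stand for no reads and follow depth, with Hoxd10 at 4 reads in wt and 1 in maternal null, and Hoxc11, at 0 reads throughout, still at -1.27.

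**Figure D4:**
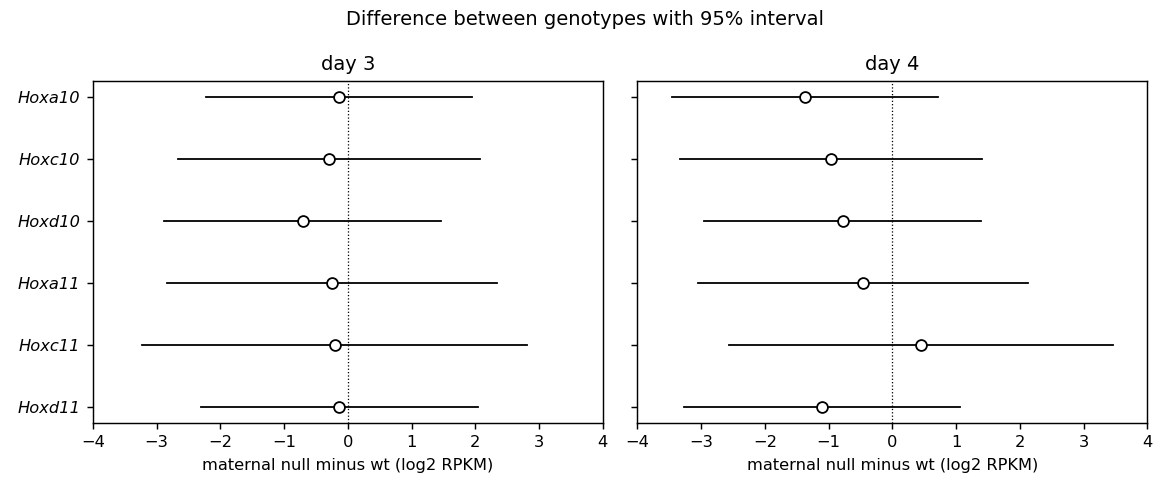
Maternal null minus wt in log2 RPKM (horizontal axis) with the 95% interval of limma for each of the 6 genes (vertical axis), day 3 on the left and day 4 on the right. All 12 intervals include 0, and at day 4 the estimates run from -1.37 for Hoxa10 to 0.45 for Hoxc11.

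The genes with the most similar profiles over the 16 libraries of days 3 and 4 were sought among the 72 other genes of the Hox and differentiation factor tables. Hoxd10 and Hoxd11 were each nearest to the other (Pearson's r = 0.99), and next to Hoxd8 (0.97 and 0.96). Hoxc10 was nearest to Hoxa9 (0.96), Hoxc9 (0.95) and Hoxd9 (0.93), Hoxa10 to Hoxa9 (0.94), Hoxd8 (0.93) and Hoxc10 (0.91), and Hoxa11 to Hoxa10, Hoxd10 and Hoxd8 (all 0.91). The third of Hoxd10 was Hoxd9 (0.94) and that of Hoxd11 was Hoxa9 (0.94). Hoxc11, with reads in 6 of the 16 libraries, was left out. These values are descriptions, since all points share the step between days. Hoxd10 and Hoxd11 had reads in 11 of the 16 libraries, 8 of them at day 4, and in 4 libraries of day 3 neither had reads, so that both values there follow depth and their likeness is partly by construction.

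Genes of the trunk and tail progenitor state were measured over the same step. Of 8 such genes in the differentiation factor table, 1 rose and 4 fell in each genotype (limma over 34 genes, against 2.94% higher in each genotype, and 23.5% lower in wt and 20.6% in maternal null). Wnt5a, a ligand of the elongating tail, rose by 2.78 ± 0.91 log2 units in wt and 2.82 ± 0.91 in maternal null. Nkx1-2, a marker of NMPs, fell, with differences of -4.60 ± 0.81 and -4.39 ± 0.81. Sox2, a neural and pluripotency factor, Cdx1 and Cdx2 were the others that fell, Cdx2 with -1.53 ± 0.47 in wt and -1.46 ± 0.47 in maternal null (limma adjusted p = 0.0239 and 0.0331). Tbra, Fgf8 and Wnt3a did not pass, with -0.99 ± 0.46, -0.16 ± 1.17 and -0.42 ± 0.84 in wt. The part of a change in cell composition in the rise of groups 10 and 11 was not tested.

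In the 6 mESC lines in 2i + LIF, with 27.5 to 127 M counts each, 5 of the 6 genes were at or under 0.237 CPM. Hoxa10 was the most abundant, at 41, 281 and 13 counts in wt lines 1 to 3 and 177, 237 and 38 in maternal null, a mean of 1.32 ± 0.99 and 1.59 ± 0.61 CPM (SD, n = 3). The other 5 genes had 0 to 30 counts a line. Only Hoxa10 and Hoxd11 passed the filter on low counts, with maternal null minus wt differences of 0.27 and -0.28 log2 units (edgeR adjusted p = 0.995 and 0.992). Of 17696 genes 0% passed edgeR, with 397 at an unadjusted p under 0.05, and DESeq2 called 0 as well. Smchd1 was at 117 ± 9.63 CPM in wt and 74.7 ± 10.7 in maternal null, lower in each of the 3 maternal null lines. Smchd1 itself did not pass (-0.63 log2 units, edgeR adjusted p = 0.992, DESeq2 adjusted p = 0.542). With 3 lines a genotype, a lack of calls thus does not show a lack of difference. Of 9 genes of GDF11 signalling 0 passed. Gdf11 itself was at 1.26 ± 0.11 and 1.19 ± 0.31 CPM, while the receptor gene Acvr2b was at 18.6 ± 1.68 and 21.0 ± 0.38 CPM and Smad2 at 85.8 ± 3.54 and 95.1 ± 10.3 CPM, so the genes through which GDF11 acts had reads in each line before differentiation began.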

How the data were processed

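The genes and lists were chosen with earlier results of these data known. The authors trimmed reads with Trim Galore 0.4.4, mapped them with HISAT2 2.0.5 to GRCm38.p6 and quantified them in SeqMonk. The log2 RPKM values of 39 Hox genes and 34 differentiation factors were deposited after correction by the authors for library size and transcript length. The authors also deposited raw counts of 35591 genes without normalization, used here for the 6 lines in 2i + LIF and for checks of the labels. All 141 columns were mapped by name.

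Reads were recovered as 2 to the power of the value times exon length (GENCODE M21) times the depth at which a gene without reads equals 0.9 reads. With 45 libraries of 0.346 to 126.8 M (M, 10 to the power 6) reads, depth limits values before day 4. The factor values of wt replicate 4 at day 2 were not whole reads at the depth of its Hox values. Comparisons used limma 3.58.1 on all 39 Hox genes (days 3 and 4, or 2.5 and 3, in 1 fit), exact permutation tests in scipy 1.17.1 and numpy 2.4.6, and for counts edgeR 4.0.16 (quasi-likelihood, TMM, filterByExpr) in R 4.3.3, with Benjamini-Hochberg adjustment and a threshold of 0.05. The fit of the 34 factors was added after the data were seen. Scripts were tested on simulated data. Alternatives were log2(RPKM + 1) and log2(RPKM + 0.1) with 0 for no reads, a filter on reads, edgeR on recovered reads, libraries over 5 M reads, line 1, each library left out, the replicate number as a block, RLE, DESeq2 1.42.0, all counted genes and, chosen after the data were seen, scaling to Hox1-9 reads. Named were the 6 genes, group 9 neighbours, overlapping genes, for genes with reads in at least 8 of 16 libraries the 3 most correlated genes, Smchd1 and the members of the lists; Hoxa13, Hoxc6 and Hoxd8 were added after their values were seen. Same-numbered libraries of maternal null at days 2.5 and 3 had r = 0.22 to 0.34 in 3 pairs, too weak to establish a pairing. Replicate 2 there correlated best with a library of another number. Each of the other comparisons had a pair with r under 0.1, but single pairs were higher. Replicate 2 had r = 0.60 between days 2.5 and 3 in wt, and 0.59 between the genotypes at day 4.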

Additional observations from a re-analysis of the deposited data

Results flagged for a closer look

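Of 24 groups of 4 libraries (6 genes, 2 days, 2 genotypes), 1 held a library apart from the rest. For Hoxa11 in wt at day 4, replicate 2 stood at 2.34 log2 RPKM from 31 reads, and the other 3 lay between -1.06 and -0.87, so that the gap took up a fraction of 0.944 of the range of the group. With 24 groups looked at, 1 group of this kind can arise by chance. The other 5 genes were also highest in that library, which was the shallowest of day 4.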

How the results depend on the processing

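Some calls of the rise from day 3 to day 4 changed with the scale. With log2(RPKM + 1) Hoxa11 in wt (1.05, limma adjusted p = 0.0941) and Hoxa10 and Hoxa11 in maternal null (1.33 and 1.13, adjusted p = 0.0554 and 0.0849) no longer passed, while with log2(RPKM + 0.1) 5 of the 6 genes passed in each genotype. Of all Hox genes, 7 to 13 rose in maternal null when 1 library was left out (12 with all), with 7 without replicate 1 of day 3 or replicate 2 of day 4, where 3 of the 6 genes passed. Between days 2.5 and 3, libraries over 5 M reads gave 7 genes in wt in place of 18 and 1 in maternal null in place of 0; leaving out a library gave 0 to 6 in maternal null, with 6 without wt replicate 1 of day 3. No pairing by replicate number was established, with r from 0.012 to 0.59 between same-numbered wt and maternal null libraries of day 4. For maternal null between days 2.5 and 3 the replicate block gave 1 gene. From day 3 to day 4 the replicate block gave 13 and 11 genes, with 5 of the 6 genes in each genotype, and it gave 0 between genotypes. Scaling to Hox1-9 reads moved the median of the 39 genes from 1.74 to 0.64 log2 units in wt and from 0.96 to 0.14 in maternal null. The step of Hoxc11 in wt ran from -0.55 to 2.20 with 1 library left out.

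Differences between genotypes, none of which passed, changed sign as follows (log2, maternal null minus wt). At day 3 without libraries under 5 M reads, Hoxa10 was at 1.38, Hoxc10 at 1.37, Hoxa11 and Hoxc11 at 0.75 and Hoxd11 at 0.85; in line 1, Hoxa10 was at 0.79 and Hoxc10 at 0.10; with edgeR on recovered reads, Hoxa10 was at 0.16 and Hoxd11 at 0.037, and scaled to Hox1-9, Hoxa10, Hoxc10 and Hoxd11 were at 0.71, 0.58 and 0.079. Hoxd11 was at 0.0072 and 0.062 with log2(RPKM + 1) and log2(RPKM + 0.1). At day 4 Hoxa11 was at 0.021 with log2(RPKM + 1), 0.36 without libraries under 5 M, 0.57 in line 1 and 0.86 scaled to Hox1-9, Hoxd10 at 0.45 scaled to Hox1-9, and Hoxc11 at -0.12, -0.31, -0.27 and -0.38 with log2(RPKM + 1), log2(RPKM + 0.1), edgeR and line 1. With 1 library left out the ranges at day 3 were -0.88 to 0.46 for Hoxa10, -1.56 to 0.37 for Hoxc10, -1.25 to 0.0095 for Hoxd10, -1.17 to 0.51 for Hoxa11, -1.12 to 0.55 for Hoxc11 and -0.88 to 0.60 for Hoxd11, and at day 4 -1.58 to 0.037 for Hoxd10, -1.19 to 0.88 for Hoxa11 and -0.91 to 1.84 for Hoxc11. Hoxa11 and Hoxc11 had 0 reads in each maternal null library of day 3, so their values and sign changes there follow depth through the value for no reads. For the others the cause was not tested. Depth limits every value before day 4.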
